A study of Homo sapiens with 54 samples.

Results

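The enzymes that make and reduce androgens were examined in 54 tumours grown from LNCaP clone FGC, 1 androgen-sensitive human prostate cancer cell line, in male NOD-SCID mice. The 10 genes were taken by name from the 60642 gene symbols of the expression table: AKR1C3, SRD5A1, SRD5A2, SRD5A3, HSD3B1, HSD3B2, HSD17B6, HSD17B11, CYP17A1 and STAR. Each tumour came from its own mouse. PRE-CX mice (n = 9) had mock surgery and kept their testes, and their tumours were taken at 1000 mm3. All other mice were castrated. POST-CX tumours (n = 8) were taken 1 week after castration, at the lowest serum prostate-specific antigen (PSA), and CRPC tumours (n = 10) once PSA had recurred or the tumour had reached 1000 mm3. The enzalutamide groups also received enzalutamide, an antiandrogen, by mouth at 10 mg/kg on 5 days a week from the renewed rise of PSA. ENZS tumours (n = 12) were taken at the second fall of PSA and ENZR tumours (n = 15) when PSA had returned or the tumour had reached 1000 mm3. NOD-SCID mice lack a working adaptive immune system.

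Androgens are made from cholesterol. STAR, a carrier that shares its symbol with the aligner STAR, brings cholesterol into mitochondria, CYP17A1 removes the side chain of the resulting steroid to give the adrenal androgens, and HSD3B1 and HSD3B2 turn these into 3-keto steroids. AKR1C3 then reduces the 17-keto group, which makes testosterone from androstenedione. The steroid 5alpha-reductases SRD5A1 and SRD5A2 reduce testosterone or its precursors towards dihydrotestosterone, the strongest natural androgen. HSD17B6 can regenerate dihydrotestosterone from 3alpha-androstanediol by oxidation. HSD17B11 oxidizes 17beta-hydroxysteroids and sits on lipid droplets, and SRD5A3, named after its likeness to the reductases, is mainly known for making dolichol, which is needed for protein glycosylation. In castration-resistant prostate cancer these enzymes are studied as a route by which tumours make their own androgens.

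The bases before the start sites show how unlike these genes are. Start-site windows from RefSeq on build GRCh38.p14 were used for 8 of the 10 genes, all but HSD17B6 and STAR. The 250 bases before the start are printed for both AKR1C3 starts, since AKR1C3 differed most between groups, and for the 3 SRD5A genes, of which 2 were expressed and 1 was not. Capitals mark CG dinucleotides, and each sequence reads 5′ to 3′ on the strand of the gene. The windows of AKR1C3 lie at chr10:5048531-5048780 and chr10:5094164-5094413 on the plus strand. Those of SRD5A1 and SRD5A3 lie at chr5:6633190-6633439 and chr4:55345992-55346241 on the plus strand, and that of SRD5A2 at chr2:31580939-31581188 on the minus strand.
AKR1C3 start 1: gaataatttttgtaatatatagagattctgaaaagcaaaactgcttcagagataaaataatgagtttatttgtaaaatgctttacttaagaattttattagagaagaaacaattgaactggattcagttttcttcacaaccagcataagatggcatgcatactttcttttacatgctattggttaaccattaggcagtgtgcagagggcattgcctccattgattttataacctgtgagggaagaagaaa
AKR1C3 start 2: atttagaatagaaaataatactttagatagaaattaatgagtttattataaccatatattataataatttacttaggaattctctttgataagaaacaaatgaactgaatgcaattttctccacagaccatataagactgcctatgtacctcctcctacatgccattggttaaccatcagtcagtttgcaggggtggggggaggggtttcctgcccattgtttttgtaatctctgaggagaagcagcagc
SRD5A1: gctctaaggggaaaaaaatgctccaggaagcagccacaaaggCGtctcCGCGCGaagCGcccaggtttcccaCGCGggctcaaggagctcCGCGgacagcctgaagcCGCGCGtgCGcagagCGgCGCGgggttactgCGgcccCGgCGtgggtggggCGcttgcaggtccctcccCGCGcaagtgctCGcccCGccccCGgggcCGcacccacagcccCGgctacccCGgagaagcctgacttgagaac
SRD5A3: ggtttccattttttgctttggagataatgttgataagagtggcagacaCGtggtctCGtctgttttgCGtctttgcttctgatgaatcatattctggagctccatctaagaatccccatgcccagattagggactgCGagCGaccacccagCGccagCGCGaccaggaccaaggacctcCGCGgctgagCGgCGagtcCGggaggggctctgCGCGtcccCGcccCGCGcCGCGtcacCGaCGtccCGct
SRD5A2: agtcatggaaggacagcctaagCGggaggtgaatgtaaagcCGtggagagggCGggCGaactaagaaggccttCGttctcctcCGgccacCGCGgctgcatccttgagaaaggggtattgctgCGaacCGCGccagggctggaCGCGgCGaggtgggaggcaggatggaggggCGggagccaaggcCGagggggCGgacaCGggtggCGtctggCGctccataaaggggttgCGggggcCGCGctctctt
Both windows of AKR1C3 held 0 CG dinucleotides, at a GC content of 32.0% and 35.6%. SRD5A1 held 28 (GC 70.8%), SRD5A3 held 23 (59.6%) and SRD5A2 also held 23 (66.4%). The median over all 34943 windows was 11 CG at a GC content of 58%. HSD17B11 had 16, CYP17A1 had 2, HSD3B2 had 1, and both HSD3B1 starts had 0. Of the unexpressed members whose windows were used, only SRD5A2 thus lay above the median. STAR, also unexpressed, was not among them. Of the expressed members whose windows were used, only AKR1C3 lay below the median. The hexamer of the androgen response element (AGAACA, or TGTTCT on the other strand) stood in 12.4% of all windows. It stood in 1 of the windows used for the members, that of HSD3B2. The full element of 15 letters (AGAACA, any 3 letters, then TGTTCT) stood in 1 of the 34943 windows, which was none of those used for the members. These matches describe the letters and not the binding of any factor.

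Values are TPM (transcripts per 1000000 transcripts), a level corrected for transcript length, so that levels can be compared between genes. A gene counted as expressed if at least 8 tumours reached 1 TPM, and 17131 genes did. By this rule 5 members were expressed: AKR1C3, SRD5A1, SRD5A3, HSD17B6 and HSD17B11. SRD5A2, HSD3B1, HSD3B2, CYP17A1 and STAR were not. The rule pools all groups, and AKR1C3 reached 1 TPM in 0 of 9 PRE-CX, 2 of 8 POST-CX and 6 of 10 CRPC tumours. It did so in 11 of 12 ENZS and 13 of 15 ENZR tumours. In PRE-CX its median, 0.2 TPM, was the same as that of HSD3B1. Human TPM summed to a median per group of 86.8% to 93.9% of 1000000. Totals were low in POST-CX mouse 91 (27.9%), ENZR mouse 87 (12.1%), POST-CX mouse 48 (59.7%) and ENZR mouse 103 (66.7%). Fits without the tumours of low total left out those under 500000, which were POST-CX mouse 91 and ENZR mouse 87 only. A low total lowers the genes of that tumour, and rescaling totals to 1000000 did not bring every gene back into range. In ENZR mouse 87 rescaled SRD5A3 stood at 111.9 TPM and HSD17B6 at 8.07, each the highest of all tumours. Its rescaled AKR1C3, SRD5A1 and HSD17B11 lay within the range of the other ENZR tumours. All 10 prostate luminal markers on the list, such as KLK2 and HOXB13, were expressed. No 2 tumours had identical values, and the highest correlation between tumours was 0.986.

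STAR, CYP17A1 and HSD3B2 were at or near 0 in every group. CYP17A1, which commits steroids to androgens, was above 0 in 10 of 54 tumours and reached 0.07 TPM at most. It was listed at 0 in all 12 ENZS tumours. STAR was above 0 in 40 tumours, with a highest value of 0.29 TPM in ENZR, where the median was 0.04 TPM. In PRE-CX its median was 0.03 TPM. HSD3B2, the adrenal and gonadal form of the enzyme, was above 0 in 18 tumours and reached 0.24 TPM in POST-CX. Of the 270 values of the 5 unexpressed members, 102 were listed at 0, and TPM do not tell how few reads stand behind the others.

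HSD3B1, the form of the same enzyme in placenta and peripheral tissues, came closest to the threshold. Its median was 0.2 TPM in PRE-CX, 0.13 in POST-CX, 0.25 in CRPC, 0.105 in ENZS and 0.16 in ENZR. Only 2 tumours reached 1 TPM, CRPC mouse 81 at 1.61 and ENZR mouse 94 at 1.38. PRE-CX mouse 5 stood at 0.99 TPM and ENZR mouse 104 at 0.94. The groups overlapped over most of their ranges, so the high values were single tumours of different groups.

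SRD5A2, the reductase of normal prostate, never exceeded 0.2 TPM. Its median was 0.02 TPM in PRE-CX and in POST-CX, 0.035 in CRPC, 0.05 in ENZS and 0.08 in ENZR. The PRE-CX tumours reached 0.05 TPM, and 6 of 12 ENZS and 9 of 15 ENZR tumours lay above that. When all symbols above 0 were tested, with no filter, SRD5A2 was 0.08 higher in ENZS than in PRE-CX on the log2(TPM + 1) scale (limma, SE 0.03, adjusted p = 0.0170). The corresponding difference for ENZR was 0.07 (SE 0.03, adjusted p = 0.0629). All of these levels lay far below those of the other reductases.

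**Figure D1:**
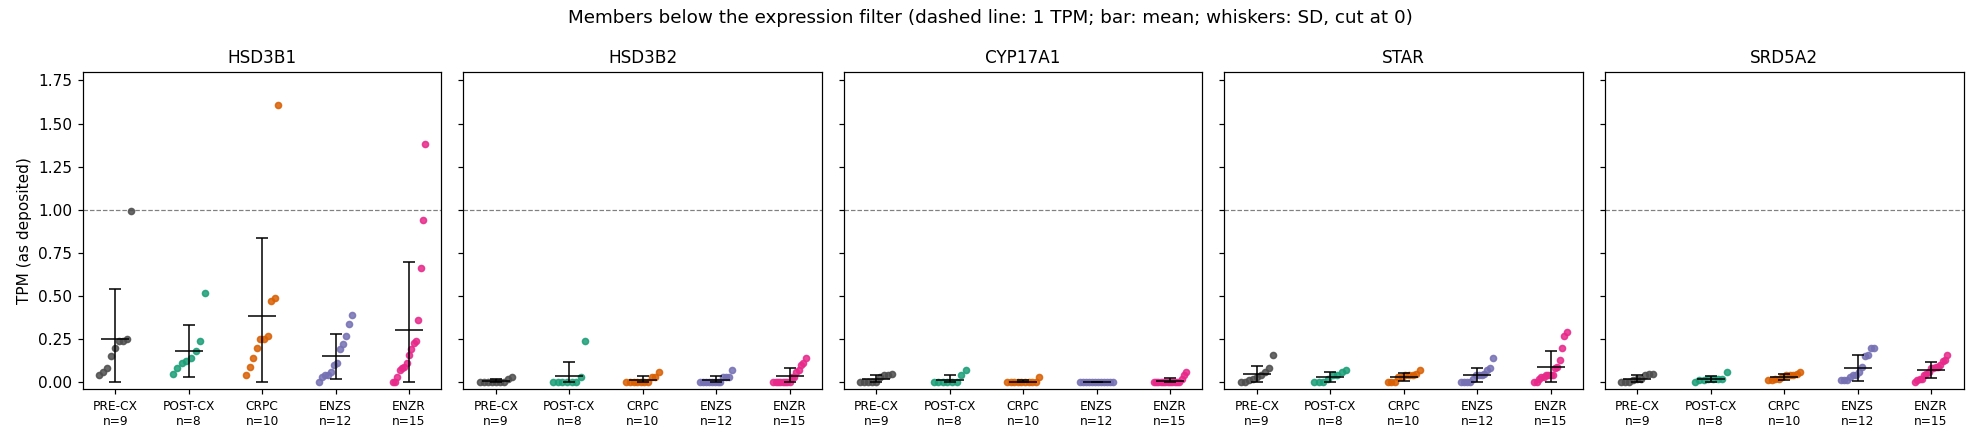
TPM (vertical axis) of the 5 members that were not expressed, with 1 point per tumour in the 5 groups, the mean as a bar and the SD as whiskers, cut at 0. The dashed line is 1 TPM, which HSD3B1 passed in 2 tumours and the other 4 genes in 0.

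Markers of steroid-making adrenal or gonadal cells were nearly absent. The list of 12 includes the members STAR, CYP17A1 and HSD3B2, so it partly repeats the values above. Of the 12 markers 1 was expressed, the side chain cleavage enzyme CYP11A1. CYP11B1, CYP11B2, MC2R and INSL3 were at 0 in all 54 tumours, and NR5A1, the factor that defines these cells, reached 0.08 TPM. The summed level of the list ranged from 0.77 to 3.01 TPM in PRE-CX, from 0.15 to 1.89 in POST-CX, from 0.51 to 2.2 in CRPC, from 0.37 to 1.62 in ENZS and from 0.1 to 1.74 in ENZR. CYP11A1 had a median of 1.27 TPM in PRE-CX and 0.41 TPM in ENZR.

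Among the 5 expressed members SRD5A3 had the highest level in most tumours, at 13.59 to 58.51 TPM. It lay above SRD5A1 in 54 of 54 tumours, by a median factor of 2.26, and above HSD17B11 in 53 of 54, the exception being ENZR mouse 100. SRD5A1 ranged from 1.5 to 36.09 TPM and lay above HSD17B11 in 40 of 54 tumours, but in only 4 of the 9 PRE-CX tumours, so these neighbours were not separated there. HSD17B11, at 3.66 to 39.9 TPM, lay above HSD17B6 in all 54. The order of HSD17B6 and AKR1C3 differed between groups. HSD17B6 lay above AKR1C3 in 9 of 9 PRE-CX, 8 of 8 POST-CX and 8 of 10 CRPC tumours, but in only 2 of 12 ENZS and 4 of 15 ENZR tumours. Among all expressed genes, the mean level of SRD5A3 stood at percentile 78.8, SRD5A1 at 61.0, HSD17B11 at 55.8, AKR1C3 at 21.3 and HSD17B6 at 18.96.

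**Figure D2:**
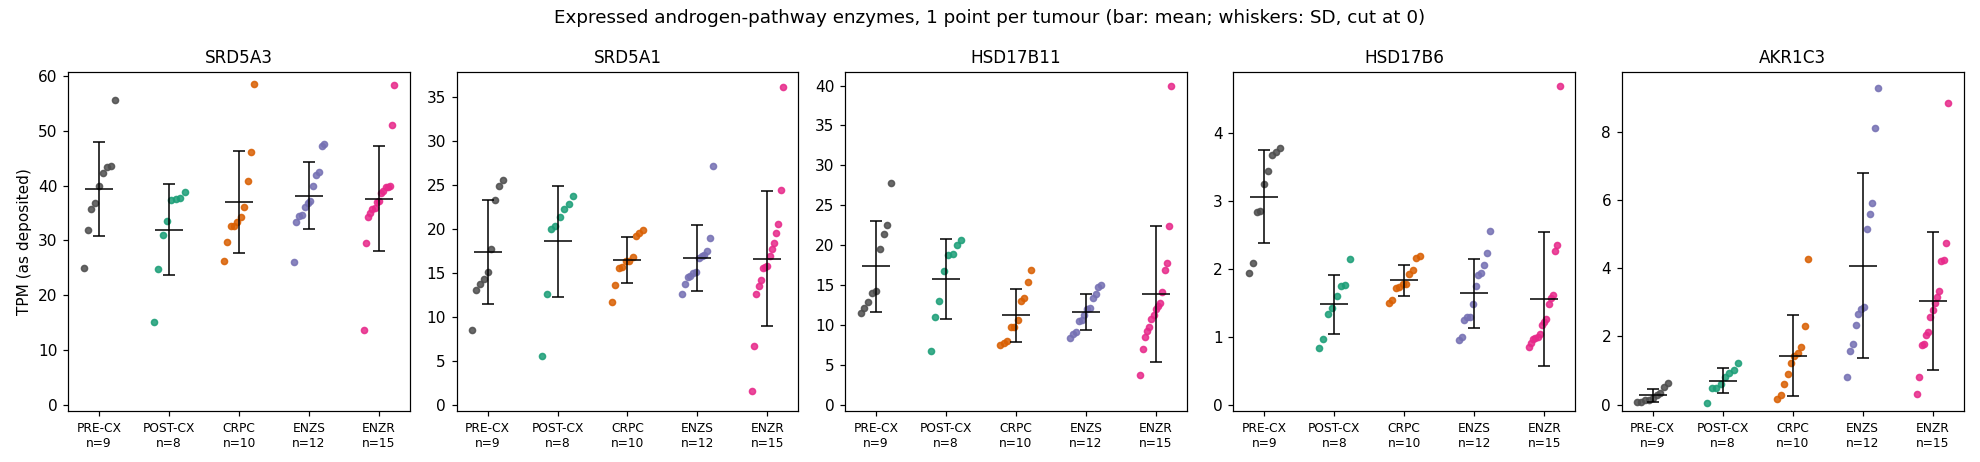
TPM (vertical axis, on a scale of its own in each panel) of the 5 expressed members, with 1 point per tumour in the 5 groups, the mean as a bar and the SD as whiskers, cut at 0. AKR1C3 climbs from at most 0.65 TPM in PRE-CX to as much as 9.29 in ENZS, HSD17B6 lies lower in most tumours of the castrated groups, and both SRD5A panels overlap throughout.

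AKR1C3, on chromosome 10 (5048781 to 5107686), was the member that differed most between groups. In the 9 PRE-CX tumours its lowest, median and highest values were 0.07, 0.2 and 0.65 TPM. In POST-CX they were 0.05, 0.71 and 1.23 TPM, and 4 of 8 tumours lay above the PRE-CX range and 1 below it. In CRPC they were 0.18, 1.32 and 4.26 TPM, with 7 of 10 tumours above the PRE-CX range. ENZS no longer overlapped with PRE-CX. Its lowest, median and highest values were 0.8, 2.825 and 9.29 TPM. In ENZR they were 0.32, 2.77 and 8.84 TPM, and 14 of 15 tumours lay above the PRE-CX range. The exception was ENZR mouse 87, whose 0.32 TPM became 2.63 TPM once its low total was rescaled to 1000000. The mean (± SD over the mice of the group) was 0.270 ± 0.201 TPM before castration and 0.701 ± 0.370 after it. It was 1.44 ± 1.19 TPM at castration resistance, and under enzalutamide 4.07 ± 2.71 at response and 3.04 ± 2.02 at resistance.

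The differences were tested with limma on log2(TPM + 1) in 1 fit of all expressed genes over the 54 tumours, with Benjamini-Hochberg adjustment over the 17131 genes. This scale understates changes near or below 1 TPM. A gene passed at an adjusted p under 0.05 and was called if its log2 difference was also at least 1 in size. Mice of a group are separate animals, and the p-values measure the spread between them. AKR1C3 was 1.82 higher in ENZS than in PRE-CX (SE 0.26, adjusted p = 9.3e-08) and 1.53 higher in ENZR (SE 0.25, adjusted p = 2.8e-06), and it was called in both. With a pseudocount of 0.1 the same differences were 3.37 and 2.97. AKR1C3 was the 1 member called of 5 tested in each, where 12.7% of all genes were called in ENZS and 8.55% in ENZR. In bulk tumours, more cells that make an RNA and more RNA per cell cannot be told apart.

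Before enzalutamide the difference of AKR1C3 was smaller. It was 0.40 higher in POST-CX than in PRE-CX (SE 0.28, adjusted p = 0.476, limma), which did not pass. The unadjusted p of AKR1C3 was 0.160 in limma and 0.0125 in an exact permutation test of this gene alone. In CRPC it was 0.82 higher (SE 0.27, adjusted p = 0.0471, limma) and passed narrowly. Of all genes, 2.62% were called in POST-CX and 3.17% in CRPC, against 0 of 5 members in either. The CRPC result was lost with median centring (adjusted p = 0.0626), with no filter on low genes (0.103) and on leaving out any 1 of 20 tumours. These were CRPC mice 35, 36, 43, 47, 78, 89 and 107, PRE-CX mice 5, 9, 53, 58, 62, 67, 111 and 112, and POST-CX mice 18, 44, 66, 86 and 92. The CRPC result held in the other 5 of 7 fits. One of these was the fit with a pseudocount of 0.1, where AKR1C3 was 1.83 higher and called (adjusted p = 0.0048, limma). The adjusted p ranged from 0.0203 to 0.116 over all 54 omissions.

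The enzalutamide groups were also set against CRPC. AKR1C3 was 1.002 higher in ENZS than in CRPC (SE 0.25, adjusted p = 0.0066, limma). It was the 1 of 5 members that passed, where 8.93% of all genes passed, and was called, where 2.42% were. The adjusted p stayed under 0.05 in all 7 other fits and all 54 omissions. The difference fell under 1 with median centring (0.87) and without any 1 of 9 tumours (CRPC mice 29, 81, 102 and 107 and ENZS mice 45, 76, 79, 80 and 101), where its lowest value was 0.89. Between ENZR and CRPC the difference was 0.71 (SE 0.24, adjusted p = 0.0860, limma), which did not pass. It did pass with rescaled TPM (0.90, adjusted p = 0.0073), with median centring (0.78, 0.0208), without the tumours of low total (0.82, 0.0167), with array weights (0.93, 0.000933), and on leaving out CRPC mouse 47 or ENZR mouse 87 (lowest adjusted p = 0.0245). In this comparison 0 of 5 members passed and 0 were called, beside 3.1% and 1.37% of all genes. HSD17B6 differed by -0.21 there (adjusted p = 0.479, limma) and passed with array weights only (-0.28, adjusted p = 0.0432).

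**Figure D3:**
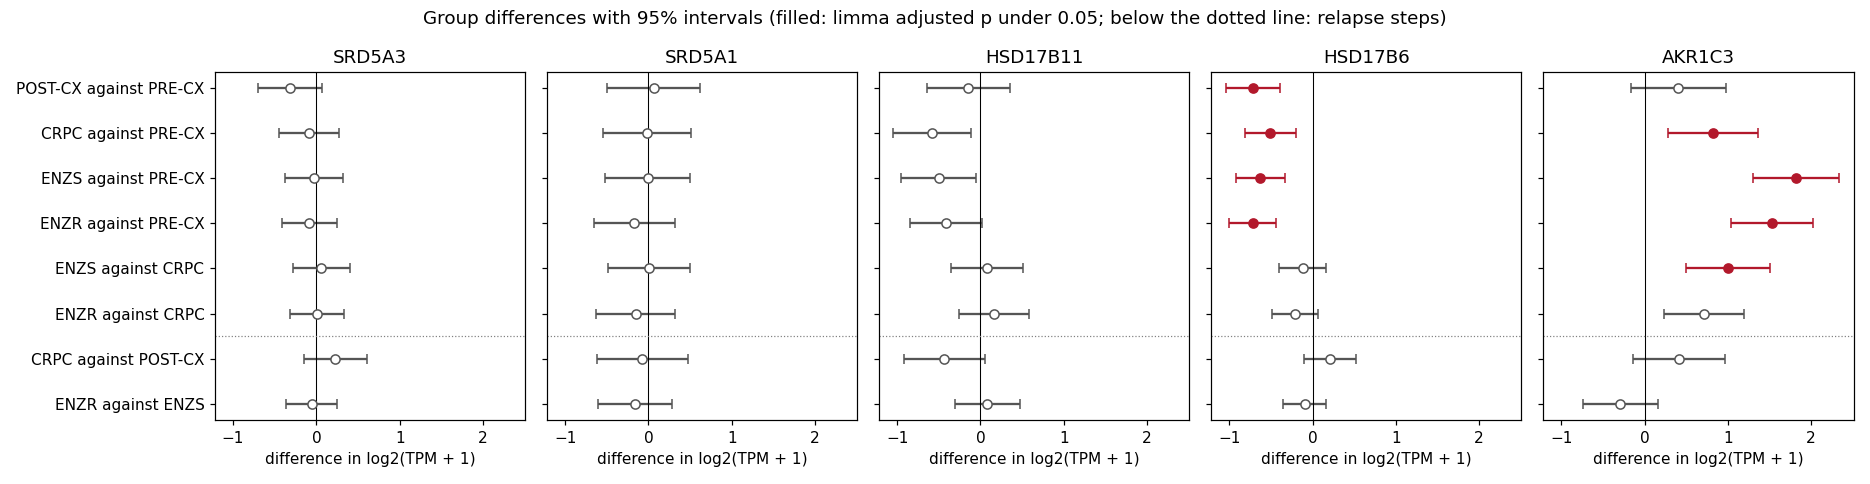
Differences in log2(TPM + 1) with 95% intervals (horizontal axis) for the 5 expressed members in 8 comparisons (vertical axis). Filled red points had a limma adjusted p under 0.05: AKR1C3 in 4 comparisons and HSD17B6 in 4, while the relapse steps below the dotted line hold none.

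AKR1C3 has close neighbours whose reads cannot be fully told apart. AKR1C1 and AKR1C2 lie beside it on chromosome 10 (4963415 to 4983283 and 4987775 to 5018000), encode near-identical enzymes that mainly inactivate progesterone and dihydrotestosterone, and share reads with AKR1C3 that RSEM divides by estimation. Both were called against PRE-CX. AKR1C1 was 1.06 higher in ENZS (SE 0.32, adjusted p = 0.0056, limma) and 1.03 higher in ENZR (SE 0.30, adjusted p = 0.0066, limma). AKR1C1 reached 1 TPM in 9 of 12 ENZS and 7 of 15 ENZR tumours. In PRE-CX, POST-CX and CRPC it did so in 1, 0 and 1 tumours. It thus met the expression filter only through the enzalutamide groups, where it was high, and its calls are a description. AKR1C2 was 1.20 higher in ENZS (SE 0.34, adjusted p = 0.0036, limma) and 1.29 higher in ENZR (SE 0.32, adjusted p = 0.0016, limma). The 3 genes were therefore also summed, a choice made after the data had been seen.

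The sum of AKR1C1, AKR1C2 and AKR1C3 had a median of 0.4 TPM in PRE-CX, 1.8 in POST-CX, 2.44 in CRPC, 6.31 in ENZS and 5.78 in ENZR. Two-sided permutation tests of log2(sum + 1), exact where a group had under 10 tumours, were adjusted over 8 comparisons. The sum was higher than in PRE-CX by 1.05 in CRPC (adjusted permutation p = 0.0118), by 2.18 in ENZS and by 2.07 in ENZR (adjusted permutation p = 0.000122 in both). POST-CX was 0.57 higher (adjusted permutation p = 0.0986). Against CRPC the sum was 1.14 higher in ENZS (adjusted permutation p = 0.0118) and 1.02 higher in ENZR (adjusted permutation p = 0.0257). Before adjustment the permutation p of ENZR against CRPC was 0.0161 for the sum and 0.0164 for AKR1C3 alone. The median share of AKR1C3 in the sum was 32.5% in PRE-CX, 37.0% in POST-CX, 39.0% in CRPC, 48.6% in ENZS and 38.5% in ENZR, and within ENZR it ran from 18.98% to 87.3%. The highest sum, 46.58 TPM, was that of ENZR mouse 103, with 15.95 TPM of AKR1C1, 21.79 of AKR1C2 and 8.84 of AKR1C3.

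**Figure D4:**
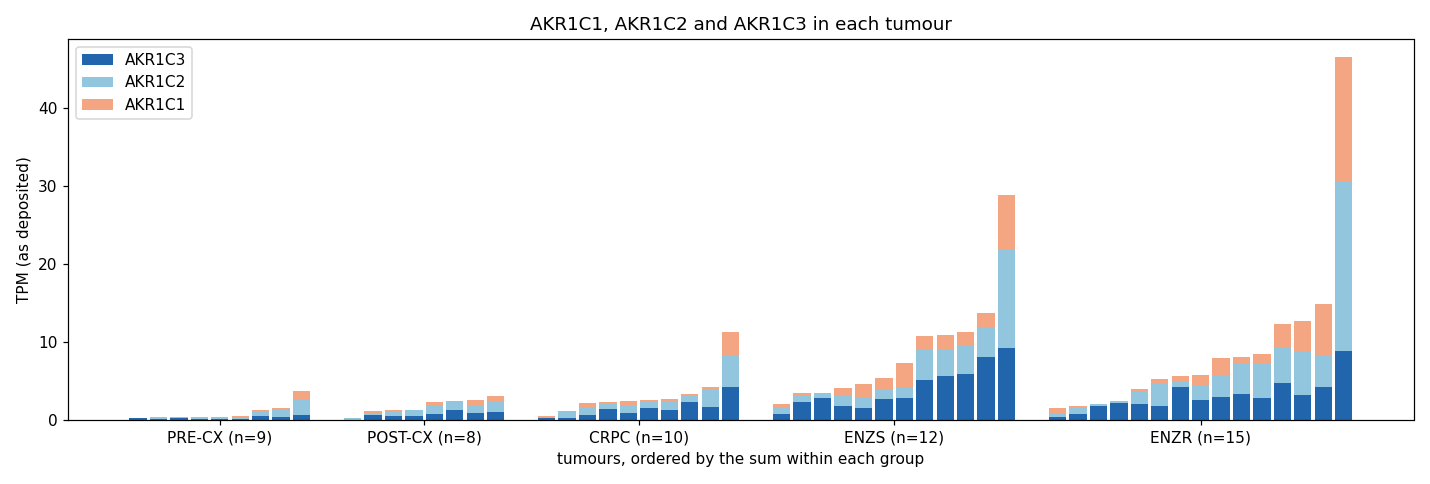
TPM of AKR1C1, AKR1C2 and AKR1C3 stacked in each of the 54 tumours (vertical axis), with tumours ordered by their sum within each group (horizontal axis). The sum stays at or below 3.69 TPM in PRE-CX and reaches 46.58 TPM in ENZR, and the share of the 3 genes varies from tumour to tumour.

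HSD17B6, on chromosome 12 (56763324 to 56787790), moved the other way. In PRE-CX its lowest, median and highest values were 1.94, 3.25 and 3.77 TPM. In POST-CX they were 0.84, 1.51 and 2.14 TPM, and 7 of 8 tumours lay below the PRE-CX range. In CRPC they were 1.5, 1.77 and 2.19 TPM, with 7 of 10 tumours below it. The CRPC tumours were thus tightly grouped around a lower level. In ENZS the values were 0.95, 1.615 and 2.55 TPM, with 8 of 12 below the PRE-CX range. In ENZR they were 0.85, 1.21 and 4.69 TPM, with 12 of 15 below it and 1 tumour, mouse 75, above it.

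HSD17B6 fell in all 4 castrated groups against PRE-CX, by less than 1 on the log2(TPM + 1) scale. The difference was -0.72 in POST-CX (SE 0.16, adjusted p = 0.0032, limma), -0.51 in CRPC (SE 0.15, adjusted p = 0.0277), -0.63 in ENZS (SE 0.15, adjusted p = 0.000502) and -0.72 in ENZR (SE 0.14, adjusted p = 6.7e-05). It was the 1 member that passed in POST-CX, where 4.33% of all genes passed. In CRPC, ENZS and ENZR it and AKR1C3 were the 2 members that passed, where 7.43%, 38.5% and 29.1% of all genes did. With a pseudocount of 0.1 HSD17B6 was also called in POST-CX (-1.02) and in ENZR (-1.05). The CRPC result was lost with that pseudocount (adjusted p = 0.0586) and on leaving out CRPC mouse 89 or PRE-CX mouse 58, 62, 111 or 112. The other 3 held in all 7 other fits and all 54 omissions.

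HSD17B11, on chromosome 4 (87336515 to 87391188), gave a result that depended on the fit. Its lowest, median and highest values were 11.44, 14.23 and 27.75 TPM in PRE-CX and 6.73, 17.805 and 20.6 in POST-CX. In CRPC they were 7.49, 10.185 and 16.88 TPM, and 6 of 10 tumours lay below the PRE-CX range. They were 8.32, 11.615 and 15.06 TPM in ENZS, with 6 of 12 below it, and 3.66, 11.93 and 39.9 TPM in ENZR, with 7 of 15 below it. ENZR mouse 100, at 39.9 TPM, was the 1 tumour above that range. Every group overlapped with PRE-CX.

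Against PRE-CX, HSD17B11 differed by -0.58 in CRPC (SE 0.23, adjusted p = 0.129, limma), by -0.50 in ENZS (SE 0.22, adjusted p = 0.0706) and by -0.42 in ENZR (SE 0.21, adjusted p = 0.140), and none passed. Exact permutation tests gave an unadjusted p of 0.0078 in CRPC, 0.0046 in ENZS and 0.128 in ENZR. The unadjusted limma p was 0.0162, 0.0295 and 0.0571 in the same order. In CRPC and ENZS 5 of 7 other fits passed, among them rescaled TPM (adjusted p = 0.0249 and 0.0343, limma) and array weights (0.000531 and 0.00202). In ENZR 2 of 7 did, median centring (0.0372) and array weights (0.00713). Single omissions that let it pass were ENZR mouse 87 for CRPC, ENZR mice 87 and 100 for ENZS, and ENZR mouse 100 for ENZR. In POST-CX the difference was -0.14 (SE 0.25, adjusted p = 0.816, limma) and passed in 0 of 7 other fits.

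The expressed 5alpha-reductases did not pass in any comparison. SRD5A1, on chromosome 5, had medians of 15.03 TPM in PRE-CX, 20.795 in POST-CX, 16.345 in CRPC, 15.875 in ENZS and 15.74 in ENZR. The lowest values were those of low totals, 1.5 TPM in ENZR mouse 87 and 5.57 in POST-CX mouse 91, and the highest was 36.09 TPM in ENZR mouse 33. SRD5A3, on chromosome 4, had medians of 39.85 TPM in PRE-CX, 35.445 in POST-CX, 33.805 in CRPC, 36.92 in ENZS and 37.25 in ENZR. All 5 groups overlapped for both genes.

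SRD5A1 differed from PRE-CX by -0.17 in ENZR (95% interval -0.65 to 0.32, adjusted p = 0.642, limma), which became 0.02 without ENZR mouse 87. In POST-CX it differed by 0.06 (adjusted p = 0.937, limma), which became 0.27 without the tumours of low total (95% interval -0.11 to 0.65, adjusted p = 0.340). SRD5A3 differed by -0.31 in POST-CX (95% interval -0.70 to 0.07, adjusted p = 0.398, limma), which became -0.17 without POST-CX mouse 91. Neither gene passed in any of the 7 other fits or the 54 omissions. The share of SRD5A1 in the sum of the 3 SRD5A genes had a median of 29.5% in PRE-CX, 37.4% in POST-CX, 31.3% in CRPC, 29.6% in ENZS and 29.9% in ENZR. It ranged from 9.94% to 47.4% in ENZR, so single tumours varied more than the group medians did. The 9.94% was that of ENZR mouse 87, a tumour of low total. A factor common to all genes of a tumour cancels in this share, but a change of single genes does not.

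At relapse, no member passed. After castration the step from POST-CX to CRPC held 0 called members and 0 called genes (0% of 17131) in limma. There 1154 genes (6.74%) and 0 of the 5 tested members had an unadjusted limma p under 0.05. AKR1C3 differed by 0.42 (95% interval -0.14 to 0.97, adjusted p = 0.710, limma), and 6 of 10 CRPC tumours reached 1 TPM against 2 of 8 POST-CX tumours. HSD17B6 differed by 0.21 (95% interval -0.11 to 0.52, adjusted p = 0.719, limma). Its unadjusted p was 0.191 in limma and 0.0409 in an exact permutation test. HSD17B11 differed by -0.43 (95% interval -0.92 to 0.05, adjusted p = 0.709, limma). With array weights, which give tumours that deviate from their group less weight, HSD17B11 did pass in this step (-0.75, adjusted p = 0.0015, limma). SRD5A1 differed by -0.08 (95% interval -0.62 to 0.47) and SRD5A3 by 0.23 (95% interval -0.15 to 0.60).

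On enzalutamide, the step from ENZS to ENZR held 0 called members of 5 and 1 called gene, P3H2, which is 0.00584% of all genes, at -1.14 (adjusted p = 0.0493, limma). Members that passed were also 0, beside 0.0175% of all genes. P3H2 is named because it was alone, after its value was seen. In all, 1914 genes (11.2%) and 0 of the 5 tested members had an unadjusted limma p under 0.05. With no filter STAR, at 0.29 TPM at most, differed by 0.06 (unadjusted p = 0.0492, adjusted p = 0.548, limma). AKR1C3 differed by -0.29 (95% interval -0.74 to 0.16, adjusted p = 0.544, limma), which became -0.19 without ENZR mouse 87, -0.18 without ENZS mouse 80 and -0.09 with median centring. HSD17B6 differed by -0.09 (95% interval -0.35 to 0.17), HSD17B11 by 0.08 (95% interval -0.31 to 0.48), SRD5A1 by -0.16 (95% interval -0.61 to 0.29) and SRD5A3 by -0.05 (95% interval -0.36 to 0.25). Without ENZR mouse 87 SRD5A1 differed by 0.03 and SRD5A3 by 0.04, without ENZR mouse 100 HSD17B11 differed by -0.03, and with rescaled TPM HSD17B6 differed by 0.06. The AKR1C sum differed by -0.12 (adjusted permutation p = 0.772), against 0.48 in the step after castration (adjusted permutation p = 0.194). The high AKR1C3 of the enzalutamide groups was thus measured both at the fall of PSA and at its return.

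Whether the steps themselves differed was tested in the same fit. For AKR1C3 the step on enzalutamide minus the step after castration was -0.71 (95% interval -1.42 to 0.01, adjusted p = 0.261, limma). No member was called, against 0.187% of all genes. HSD17B11 differed by 0.52 (95% interval -0.10 to 1.14, adjusted p = 0.323, limma), which passed with array weights only (0.82, adjusted p = 0.0171). The unexpressed members did not approach 1 TPM as a group in either step: the median of HSD3B1 went from 0.13 TPM in POST-CX to 0.25 in CRPC, and from 0.105 in ENZS to 0.16 in ENZR.

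Several measures of the tumours moved beside AKR1C3, and their part in its change was not tested. The median of all tested genes was itself 0.26 higher in ENZS than in PRE-CX, and 0.11 higher in CRPC, 0.07 higher in ENZR and -0.05 in POST-CX. The summed level of 20 stroma and blood markers, of which 7 were expressed, ranged from 9.58 to 21.54 TPM in PRE-CX, from 9.49 to 32.52 in POST-CX, from 16.83 to 94.13 in CRPC, from 22.17 to 241.49 in ENZS and from 11.87 to 79.95 in ENZR. Only human genes were kept, so these values do not measure the stroma and blood of the host mouse. The markers did not all move alike. In CRPC and in ENZR, 3 of the 7 were called higher than in PRE-CX and 1 lower. In ENZS 4 were called higher and 0 lower. Of all genes 3.17%, 8.55% and 12.7% were called in CRPC, ENZR and ENZS. The summed level of 10 proliferation genes had medians of 802 TPM in PRE-CX, 578 in POST-CX, 519 in CRPC, 154 in ENZS and 206 in ENZR. FKBP5, an androgen-induced gene, fell from a median of 136.37 TPM in PRE-CX to 28.4 in POST-CX, 26.775 in CRPC, 16.28 in ENZS and 11.3 in ENZR. KLK3, which encodes PSA, had medians of 3868, 1354, 4388, 2487 and 1126 TPM in the same order.

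The genes most like each member over the 54 tumours were named by Spearman's rho on rescaled TPM. The tumours share the group differences, so these values are a description with no test. AKR1C3 was most like IDS (rho 0.86), a lysosomal sulfatase, and DMGDH (0.86), and its rho was -0.42 with KLK3, -0.66 with FKBP5 and -0.71 with MKI67, a marker of dividing cells. HSD17B6 was most like STEAP4 (0.67) and PTRH2 (0.65), and its rho with FKBP5 was 0.53. SRD5A1 was most like NOB1 (0.71) and AVEN (0.68), SRD5A3 most like PPP1R15A (0.64) and TMEM208 (0.60), and HSD17B11 most like NUDT9 (0.59) and IER5 (0.53). Their rho with KLK3, FKBP5 and MKI67 lay between -0.21 and 0.22.

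The wider pathway was read from 9 lists of 55 further genes, of which 34 were expressed. Against PRE-CX, 0 passed higher and 2 lower in POST-CX, 1 higher and 2 lower in CRPC, 11 higher and 4 lower in ENZS, and 5 higher and 6 lower in ENZR. Of all tested genes, 1.66% passed higher and 2.67% lower in POST-CX, 5.55% and 1.87% in CRPC, 30.3% and 8.18% in ENZS, and 17.6% and 11.5% in ENZR. In both relapse steps 0 passed. The median difference of the 34 genes was 0.32 in ENZS, beside 0.26 over all tested genes, and 0.08 in ENZR, beside 0.07.

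Of the cholesterol supply list, STARD4, a soluble carrier of cholesterol, was called lower in all 4 castrated groups. It had a median of 14.52 TPM in PRE-CX, 5.06 in POST-CX, 4.91 in CRPC, 3.535 in ENZS and 3.53 in ENZR, and all 8 POST-CX tumours lay below the PRE-CX range. The differences were -1.50 in POST-CX (adjusted p = 0.000454, limma), -1.20 in CRPC (0.0029), -1.40 in ENZS (2.9e-05) and -1.89 in ENZR (7.4e-08).

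HSD17B12, best known for elongating fatty acids, stood out among the other 17-ketosteroid reductases. Its medians were 47.15 TPM in PRE-CX, 64.68 in POST-CX, 96.415 in CRPC, 133.25 in ENZS and 111.99 in ENZR. Above the PRE-CX range lay 9 of 10 CRPC, 11 of 12 ENZS and 12 of 15 ENZR tumours. It was 1.17 higher in ENZS (adjusted p = 0.000136, limma, called), 0.82 higher in CRPC (adjusted p = 0.0362) and 0.86 higher in ENZR (adjusted p = 0.0041). CYP3A5, a steroid hydroxylase, was 1.22 lower in CRPC than in PRE-CX on the same scale, with medians of 2 and 6.23 TPM (adjusted p = 0.0222, limma). It was called higher against CRPC in ENZS (1.02, adjusted p = 0.0392) and in ENZR (1.10, adjusted p = 0.0387).

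The most abundant genes of the lists were CYB5A, HSD17B4 and RDH11, and none of them passed. CYB5A, the electron donor that aids the lyase step of CYP17A1, had medians of 555.81 TPM in PRE-CX and 522.735 in CRPC, beside a CYP17A1 at or near 0. HSD17B4, a peroxisomal enzyme of fatty acid oxidation, had medians of 424.6 and 526.985 TPM. RDH11, an androgen-regulated retinal reductase, had a median of 495.21 TPM in PRE-CX and 928.06 in ENZS, where the difference was 0.76 (adjusted p = 0.0711, limma).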

How the data were processed

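Tumour RNA of 54 mice was sequenced by the authors as strand-specific polyadenylated libraries, at about 40 M read pairs of 125 bp per sample per the labels. The submitters' processing notes name FastQC 0.11.9, Trim Galore 0.6.5, STAR 2.7.2b and RSEM 1.3.3, run on a combined human GRCh38 and mouse GRCm38 reference, after which human genes were kept. The authors deposited TPM for each human gene symbol; these hold no read depth, so no counting interval is given, and precision rests on the spread between tumours.

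Values were used as deposited. The 17131 genes that reached 1 TPM in 8 tumours or more were tested with limma 3.58.1 (R 4.3.3, trend option) on log2(TPM + 1), in 1 fit of 5 group means over 54 tumours, with Benjamini-Hochberg adjustment within each of 8 comparisons and the difference of the relapse steps. The script was tested on simulated data. Permutation tests were two-sided (scipy 1.17.1), exact where a group had under 10 tumours and otherwise with 100000 resamples. Alternatives were rescaling each tumour to 1000000, median centring, a pseudocount of 0.1, no filter, leaving out the tumours with a total under 500000, a fit of only the groups compared, array weights, and leaving out each tumour. Named were all members, the wider-list genes that were called or above 100 TPM in a group mean, the 2 genes most like each expressed member, and KLK3, FKBP5 and MKI67. Results of some genes under this rule are not reported here. The members and lists were chosen with earlier results of these data known. Start-site windows and gene positions came from RefSeq tables on GRCh38.p14. No batch is named in the labels.

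A list of 8 hepatocyte markers, of which 3 were expressed, had summed medians of 8.84 TPM in PRE-CX and 6.71 in ENZR.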

Additional observations from a re-analysis of the deposited data

Results flagged for a closer look

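AKR1C3 in CRPC mouse 47 stood at 4.26 TPM, and the gap to the next of the 10 CRPC tumours, mouse 89 at 2.32 TPM, was 0.475 of the group's whole range. With that tumour's total rescaled to 1000000 the value was 4.77 TPM. The same tumour held 2.98 TPM of AKR1C1 and 4 TPM of AKR1C2. This was the 1 of 15 groups tested (CRPC, POST-CX and PRE-CX for the 5 expressed members) with a sample so far from the others. Chance flags about 1 in 20 where values are normally spread. The rule was applied to TPM and not to log2(TPM + 1), so that rate may not hold here. Without CRPC mouse 47 AKR1C3 did pass in ENZR against CRPC and did not pass in CRPC against PRE-CX.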

How the results depend on the processing

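No member that passed changed sign in any alternative. With a pseudocount of 0.1, which widens changes of low genes, 742 genes were called in POST-CX against PRE-CX (448 with a pseudocount of 1), 1093 in CRPC (543), 3647 in ENZS (2180), 2620 in ENZR (1464) and 761 in ENZS against CRPC (414). Members called were then 1 in POST-CX, 1 in CRPC and 2 in ENZR. With median centring 0 members were called in ENZS against CRPC. For CRPC against POST-CX, 3 genes were called with rescaled TPM, 7 with median centring, 5 without the low-total tumours, 27 in a fit of only the groups compared and 90 with array weights, against 0. For ENZR against ENZS, 0 were called with rescaled TPM, median centring, a pseudocount of 0.1, no filter, without the low-total tumours, in a fit of only the groups compared or with array weights, against 1. Without a filter 155 genes were called in ENZR against CRPC (234 with it). For the difference of the relapse steps the count was 13 with rescaled TPM, 64 with median centring, 21 with a pseudocount of 0.1, 3 with no filter and 147 with array weights, against 32. Leaving out 1 tumour gave 0 to 18 genes for CRPC against POST-CX (18 without ENZR mouse 87), 0 to 3 for ENZR against ENZS (3 without ENZS mouse 76), 6 to 100 for the difference of the steps (6 without POST-CX mouse 48, 100 without ENZR mouse 87), and 0 to 1 members for ENZS against CRPC. The causes of these changes were not tested. A fit of only the groups compared could not be made for the difference of the steps. No paired analysis was possible because no mouse number is shared between groups. TPM hold no depth, so what low values of CYP17A1, STAR or HSD3B2 rest on is unknown.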
